A study of Rattus norvegicus with 6 samples.

Results

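The let-7a, let-7f and let-7d microRNAs (miRNAs) are cut from hairpins that lie side by side in the rat genome, with further let-7a and let-7f copies elsewhere. Their members were taken by name from the deposited count table. They are the guide arms rno-let-7a-5p, rno-let-7d-5p and rno-let-7f-5p and the passenger arms rno-let-7a-1-3p, rno-let-7d-3p and rno-let-7f-2-3p, written here without the species prefix rno. They are 6 of the 417 different mature sequences in the table. The rule that picks these 6 names uses no measured value, although it was set with earlier results of these data known. The libraries hold small RNA from extracellular vesicles (EVs) shed by dedifferentiated fat (DFAT) cells of Sprague-Dawley rats, which are fibroblast-like cells grown from mature fat cells by ceiling culture. There were 3 EV libraries from cells at day 0 of osteogenic induction medium and 3 from cells at day 14 in that medium, with no other treatment or genotype named. The labels do not say whether libraries came from separate cultures or animals, so the spread between them may be technical.

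let-7 miRNAs are among the most conserved animal miRNAs. A hairpin is trimmed to a short duplex, the guide strand is kept by an Argonaute protein and pairs with messenger RNAs through its seed, and the passenger strand is mostly degraded. Known let-7 targets include the growth regulators RAS and HMGA2 and the RNA-binding protein LIN28, which in turn blocks let-7 maturation. In mesenchymal stem cells let-7 has been described as favouring bone-forming over fat cell differentiation through HMGA2.

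The mature sequences show how closely the members resemble each other, which bears on every count given here. In each, capitals mark the seed (bases 2 to 8 from the 5′ end), and the sequences are those of the deposited table.
let-7a-5p: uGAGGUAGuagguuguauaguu
let-7f-5p: uGAGGUAGuagauuguauaguu
let-7d-5p: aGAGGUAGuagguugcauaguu
let-7c-5p: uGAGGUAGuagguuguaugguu
let-7a-1-3p: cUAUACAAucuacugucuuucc
let-7f-2-3p: cUAUACAGucuacugucuuuc
let-7d-3p: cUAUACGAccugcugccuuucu
The 3 guides share their seed. Positions being counted from the 5′ end, let-7f-5p differs from let-7a-5p by G12A, and let-7d-5p differs from it by U1A and U16C. The abundant let-7c-5p, which is not a member, differs from let-7a-5p by A19G. The seeds of the 3 passenger arms all differ. Over its 21 bases let-7f-2-3p differs from let-7a-1-3p by A8G. Among the other family guides, let-7e-5p also differs from let-7a-5p by 1 base (U9G). The sources used here do not state how reads with mismatches were assigned, so values of guides that differ by 1 base are uncertain to the extent that reads were exchanged between them.

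The hairpins show which arm each count can come from. They are from RefSeq (GRCr8), with the mature arms in capitals.
let-7a-1: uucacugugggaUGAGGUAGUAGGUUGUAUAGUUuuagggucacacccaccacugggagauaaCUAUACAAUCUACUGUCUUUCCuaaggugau
let-7c-2: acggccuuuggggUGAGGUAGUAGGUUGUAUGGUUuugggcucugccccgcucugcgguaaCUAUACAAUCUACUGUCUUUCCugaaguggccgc
The 3p arms of these 2 hairpins are the same 22 bases. The table lists them as let-7a-1-3p and let-7c-2-3p with equal counts in each library, so a count named let-7a-1-3p may come from the let-7c-2 hairpin. The guide let-7a-5p is likewise made by 2 hairpins, let-7a-1 and let-7a-2, and let-7f-5p by let-7f-1 and let-7f-2, while let-7d-5p and let-7d-3p come from 1 hairpin. All 6 names matched a RefSeq entry with the same sequence. In the RefSeq gene order (GRCr8), let-7a-1, let-7f-1 and let-7d follow one another on chromosome 17. The let-7a-2 hairpin lies between miR-100 and miR-125b-1, and let-7f-2 precedes miR-98.

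Total miRNA counts were 120766 to 164424 per library at day 0 and 58730 to 73236 at day 14. Trimmed mean of M-values (TMM) factors, which scale libraries by the bulk of their miRNAs, were 1.34 to 1.38 at day 0 and 0.92, 0.47 and 0.92 at day 14, so counts scaled to a common library size (CPM) of day 14 replicate 2 are scaled up the most. The most abundant miRNA, miR-21-5p, held 29.4% to 42.4% of counts at day 0 and 59.7% to 68.7% at day 14. A list of 10 mesenchymal miRNAs, miR-21-5p included, held 31.2% to 44.0% at day 0 and 60.8% to 70.3% at day 14, with all 10 counted. Nearly all of this was miR-21-5p, so the rise of the list is that of miR-21-5p. Of the 10 listed, edgeR called 4 higher (miR-21-5p, miR-143-3p, miR-145-5p and miR-214-3p) and 1 lower (miR-125b-5p). miR-125b-5p had 361, 270 and 162 counts at day 0 and 16, 3 and 7 at day 14. miR-214-3p had 92, 96 and 19 and then 125, 300 and 187. miR-31a-5p was near the floor throughout, with 0, 5 and 0 counts at day 0 and 0 in the day 14 libraries. Summed over their members, the red cell and serum, muscle and neural lists held less at day 14, although miR-16-5p and miR-1-3p rose. The red cell and serum list (6 of 6 counted) held 2.96% to 11.1% and then 0.448% to 0.681%. Near the floor, miR-451-5p had 0, 7 and 0 counts at day 0 and 0 in the day 14 libraries. miR-144-3p was at 0 in the day 0 libraries and had 0, 2 and 0 counts at day 14. Most of the list's counts were miR-122-5p, with 4695, 4551 and 12911 at day 0 and 250, 415 and 349 at day 14. miR-122-5p, miR-486 and miR-144-5p were called lower, and miR-16-5p was called higher (log2 fold change 2.50, edgeR adjusted p = 0.0259). The muscle list (2 of 3 counted) held 0.243% to 0.298% and then 0.0150% to 0.0622%. Its fall was that of miR-206-3p, with 454, 403 and 294 counts at day 0 and 6, 0 and 4 at day 14. Its other counted member, miR-1-3p, was at 0 in the day 0 libraries and had 32, 11 and 23 counts at day 14. The neural list (2 of 3) held 0.290% to 0.346% and then 0.0410% to 0.113%, with miR-9a-5p at 5, 3 and 0 counts at day 0 and at 0 at day 14. The leukocyte list (3 of 5) reached at most 0.0197% at day 0 and was at 0 at day 14. The epithelial list (4 of 6) reached 0.0225% and 0.0115%. The adipocyte list (2 of 3) ran from 0 to 0.0772% at day 0 and from 0.211% to 0.254% at day 14. This rise was that of miR-378a-3p, with 56, 91 and 0 counts at day 0 and 123, 186 and 122 at day 14. The other adipocyte miRNA counted, miR-103-3p, had 18, 36 and 0 and then 8, 0 and 2. These lists are sums of named miRNAs. Whether RNA from the sources they are named for was present, or had a part in the results on the members, was not tested. In EV RNA, fewer vesicles carrying a miRNA and fewer copies per vesicle cannot be told apart.

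Together the 6 members held 3.77% ± 0.585 of the counts at day 0 and 1.07% ± 0.597 at day 14 (SD, n = 3 per group). The 3 guides made up most of this, with 4818 to 5093 counts per library at day 0 and 285 to 963 at day 14. The 3 passenger arms had 403 to 513 counts at day 0 and 24 to 33 at day 14. Of the 6 members, 5 passed the low-count filter of the edgeR quasi-likelihood test, and 3 of those 5 fell at day 14, namely let-7a-5p, let-7d-3p and let-7d-5p, while none rose. Over all 119 sequences tested, 28.6% were called lower, 26.1% higher and 54.6% in either direction. The median log2 fold change was -1.78 over the 5 tested members and 0.26 over all tested sequences. In CPM, those 3 members were lower and let-7a-1-3p was higher in each day 14 library than in any day 0 library. let-7a-1-3p passed the filter through the day 14 libraries alone, which already favoured a higher value there, so its place is not read as a result. Of all tested sequences, 37.0% lay apart as lower, 41.2% as higher and 78.2% in either direction.

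**Figure D1:**
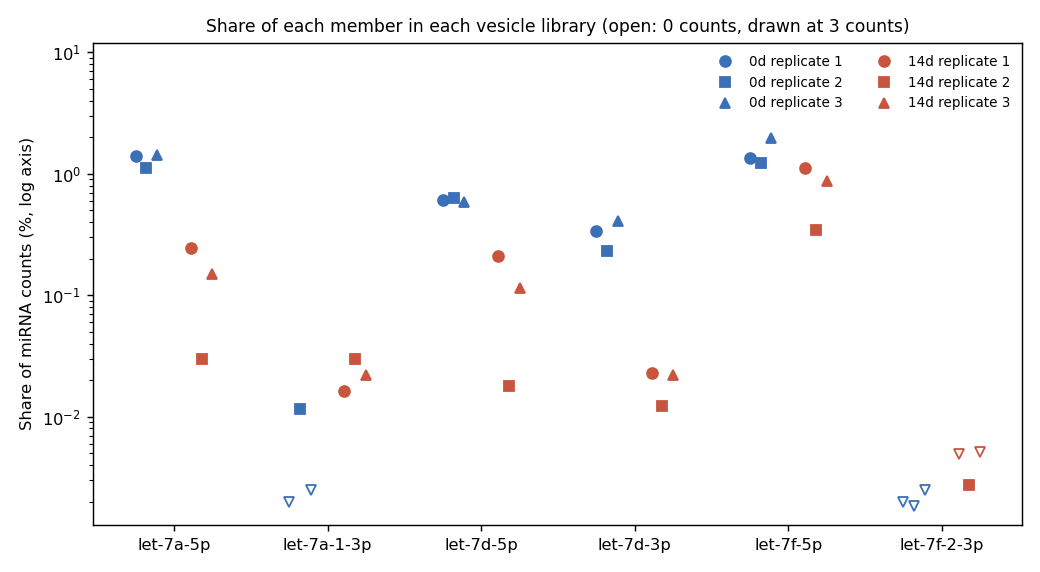
Share of all miRNA counts (%, log axis) held by each of the 6 members in each library, with blue for day 0, red for day 14 and the marker shape for the replicate number; open triangles mark libraries with 0 counts, drawn at the share of 3 counts. let-7d-3p and the 3 guides sit lower in each day 14 library than in any day 0 library, and let-7a-1-3p sits higher.

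The guide let-7a-5p had 2128, 1836 and 1708 counts at day 0 against 150, 22 and 88 at day 14. Its share was 1.31% ± 0.167 and 0.142% ± 0.108, respectively (SD, n = 3 per group). The lowest day 0 share was 1.12% and the highest day 14 share 0.245%. It fell by 2.55 ± 0.54 in log2 units (SE, n = 3 per group; edgeR adjusted p = 0.0067). The call held without each library in turn and in 15 of 20 draws that thinned the libraries to 58730 counts. The size depended on the setting, from -1.94 with a stricter filter (minimum count 50) to -3.54 with the authors' normalized table.

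let-7d-5p, the guide from the same hairpin as let-7d-3p, had 919, 1047 and 714 counts at day 0 and 129, 13 and 67 at day 14. Its share was 0.611% ± 0.0236 at day 0, the tightest of the guides, and 0.114% ± 0.0967 at day 14 (SD, n = 3 per group). The groups did not overlap, and day 14 replicate 2 was the lowest library, as it was for let-7a-5p. let-7d-5p fell by 1.78 ± 0.60 (SE, n = 3 per group; edgeR adjusted p = 0.0385). This call was not stable: leaving out day 0 replicate 1, 2 or 3 or day 14 replicate 3 ended it (adjusted p = 0.123, 0.133, 0.0601 and 0.125), it was -2.46 without day 14 replicate 1, and it held in 3 of 20 thinned draws. It also ended with RLE factors, total counts without miR-21-5p, the stricter filter and the authors' table (adjusted p of 0.0533 to 0.128).

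let-7f-5p differed from both in that it did not pass the test. It had 2046, 2034 and 2396 counts at day 0 and 684, 250 and 508 at day 14, and its share was 1.52% ± 0.404 and 0.775% ± 0.397 (SD, n = 3 per group), without overlap. In TMM-scaled CPM it had 10014, 9201 and 14332 at day 0 and 12130, 7251 and 9381 at day 14, so that the groups overlapped. Its log2 fold change was -0.22 ± 0.38 (SE, n = 3 per group; edgeR adjusted p = 0.626), not past the threshold, and it was called under none of the other settings listed in the processing description. The sign of this value depended on the setting, at -0.97 with total counts, 0.39 with the stricter filter and 0.35 as the median of 20 thinned draws. When miR-21-5p was left out of the denominator, let-7f-5p held 2.38% ± 0.374 of the remaining counts at day 0 and 2.24% ± 1.37 at day 14 (SD, n = 3 per group; exact 2-sided permutation p = 1). In the order of mean CPM, let-7f-5p was the highest guide at day 14 (9587 ± 2446), above let-7a-5p (1641 ± 1011) and let-7d-5p (1301 ± 957), of which the last 2 overlapped. At day 0 let-7f-5p (11182 ± 2758) and let-7a-5p (9646 ± 1165) overlapped, and let-7d-5p was at 4502 ± 233 (SD, n = 3 per group).

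**Figure D2:**
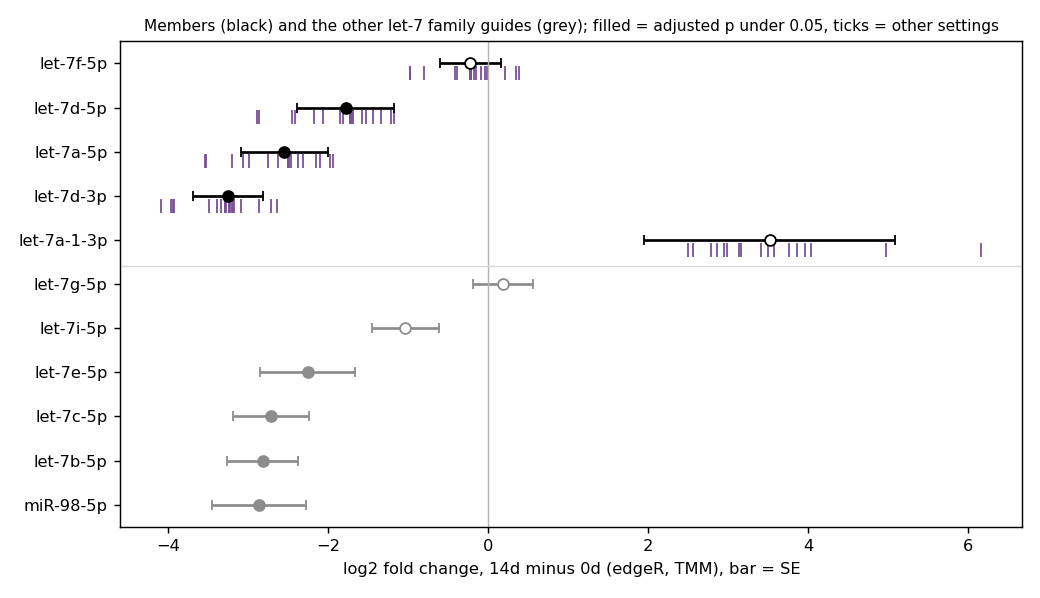
Log2 fold change of day 14 over day 0 from edgeR with its SE (n = 3 per group) for the 5 tested members (black) and the other let-7 family guides (grey); filled points have an adjusted p below 0.05, and ticks show the members' values under the other settings, except let-7a-1-3p without day 0 replicate 2, where the day 0 group is at 0. let-7d-3p and let-7a-5p lie well below 0 under each setting drawn, and the ticks of let-7f-5p lie on both sides of 0.

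Among the passenger arms, let-7d-3p was by far the most abundant. It had 513, 384 and 489 counts at day 0 and 14, 9 and 13 at day 14, a share of 0.325% ± 0.0863 and 0.0191% ± 0.00592 (SD, n = 3 per group). Each day 14 library lay far below each day 0 library. In TMM-scaled CPM the day 14 libraries were at 240.1 to 261, against 1737 to 2925 at day 0. That they lie so close rests on 14, 9 and 13 counts and on the scaling. As shares of all counts the same day 14 libraries ran from 0.0123% to 0.0229%. let-7d-3p fell by 3.26 ± 0.44 (SE, n = 3 per group; edgeR adjusted p = 0.0015), which was the largest fall among the members, with the smallest p. The call held in each setting, including without each library in turn and in 20 of 20 thinned draws, with values of -2.64 (stricter filter) to -4.09 (total counts).

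The passenger let-7a-1-3p, whose sequence is also that of let-7c-2-3p, had most of its counts at day 14. It had 0, 19 and 0 counts in the day 0 libraries and 10, 22 and 13 in the day 14 libraries, although those libraries were less deep. The smallest count listed in each library was 2, so a blank, taken as 0, may also hide a count of 1. Its share over the pooled libraries was 5.37 times higher at day 14 (19 and 45 counts; exact 95% interval 3.08 to 9.71, counting error only). Libraries of the same group differed by far more than counting error, with chi-square over degrees of freedom of 25.8 to 138 between pairs. The interval is therefore too narrow for a comparison of the groups. The fitted log2 fold change was 3.52 ± 1.57 (SE, n = 3 per group; edgeR adjusted p = 0.0864), which was not past the threshold. It passed the low-count filter through the day 14 libraries alone, so its being tested already favoured a higher value there. The size rests on day 0 replicate 2, the day 0 library with counts: without it the day 0 group was at 0, and let-7a-1-3p was at least 21.6-fold higher at day 14 (against a floor of 3 counts per library), a bound that is not read as a test. Under other settings it was called with the authors' table at a pseudocount of 1 (3.96, limma adjusted p = 0.0447). Of 20 thinned draws 13 tested it, and it was called in 9 of those. These calls came after the same kind of filter and are not read as support for a rise.

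let-7f-2-3p had 2 counts in day 14 replicate 2 and 0 in the other 5 libraries, and was not tested. A difference between the groups was not detectable at this depth.

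The arms of a hairpin come from the same precursor, and their ratio within a library does not depend on how libraries are scaled. Among the pairs here this origin is fully shared only for let-7d, because let-7a-5p and let-7f-5p are also made by other hairpins. For let-7d, the passenger made up 35.8%, 26.8% and 40.6% of the counts of both arms at day 0. At day 14 it made up 9.79%, 40.9% and 16.3%. The exact (Clopper-Pearson) 95% intervals at day 14 were 5.46% to 15.9%, 20.7% to 63.6% and 8.95% to 26.2%, since they rest on 143, 22 and 80 counts. Replicates 1 and 3 of day 14 lay below all day 0 libraries and replicate 2 lay just above the highest, so the day 14 libraries spread around the day 0 libraries. The log2 ratio of let-7d-5p to let-7d-3p was 0.94 at day 0 (SD 0.46) and higher by 1.05 at day 14 (SD 1.36, n = 3 per group; exact 2-sided permutation p = 0.4, adjusted 0.4 over 6 ratios), a difference within the spread between libraries. Without day 14 replicate 2 the difference of means was 1.80, and without day 14 replicate 1 it was 0.47. Among 25 miRNAs with both arms listed and at least 100 counts at day 0, the minor arm held a median of 4.66% of the counts pooled over the day 0 libraries. The let-7d passenger held 34.1%, exceeded only by the minor arm of miR-3559 (41.6% of 149 counts).

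For let-7a, the plain ratio of let-7a-5p to let-7a-1-3p was 96.6 in day 0 replicate 2 and at least 709 and 569 in the day 0 replicates 1 and 3. At day 14 it was 15, 1 and 6.77. Guide and passenger were thus counted equally often in day 14 replicate 2, with 22 counts each. The passenger made up 6.25%, 50% and 12.9% of both arms at day 14, with exact 95% intervals of 3.04% to 11.2%, 34.6% to 65.4% and 7.04% to 21%. At day 0 it made up 1.02% (0.618% to 1.59%) in replicate 2. These intervals cover counting error only, because reads copied by PCR are not independent molecules. The groups did not overlap (exact 2-sided permutation p = 0.1, the smallest that 3 against 3 libraries allow, adjusted 0.12 over 6 ratios). Taking let-7a-5p and let-7c-5p together as the guides, which the shared passenger sequence calls for, the passenger share was 0.814%, 7.80% and 1.46% at day 14 and 0.0970% in day 0 replicate 2. The groups again did not overlap (exact permutation p = 0.1). For let-7f the guide-to-passenger ratio was at least 678 to 799 at day 0 and at least 228 and 169 in day 14 replicates 1 and 3. In day 14 replicate 2 it was 125, from 2 passenger counts. Its test (exact permutation p = 0.1) rests on the pseudocount of 0.5 given to libraries at 0, and with the authors' table p was 0.3.

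**Figure D3:**
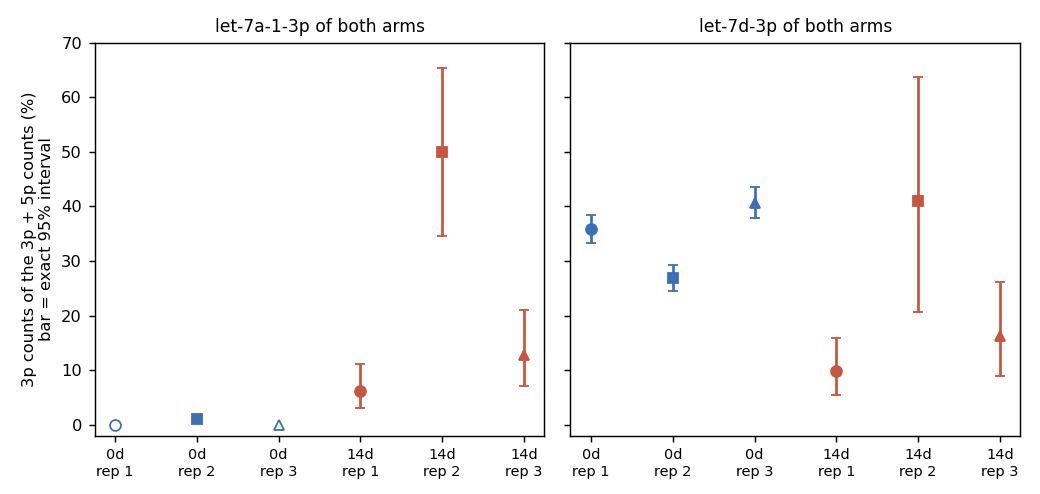
Passenger (3p) counts as a percentage of the counts of both arms in each library for let-7a (left) and let-7d (right), with exact 95% intervals as bars and open markers for libraries with 0 passenger counts. The let-7a-1-3p share is 1.02% or less at day 0 and 6.25% to 50% at day 14, whereas the let-7d-3p share of day 14 replicate 2 (40.9%) lies next to that of day 0 replicate 3 (40.6%).

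Ratios between guides within a library compare members without any scaling. The ratio of let-7a-5p to let-7f-5p was 1.04, 0.903 and 0.713 at day 0, so that both guides were counted about equally often. At day 14 it was 0.219, 0.088 and 0.173. On the log2 scale the ratio was -0.19 ± 0.28 at day 0 and -2.73 ± 0.67 at day 14 (SD, n = 3 per group), a difference of -2.54, and the groups were far apart (exact 2-sided permutation p = 0.1, the smallest possible, adjusted 0.12). These guides differ from each other by 1 base. The ratio of let-7f-5p to let-7d-5p was 2.23, 1.94 and 3.36 at day 0 and 5.30, 19.2 and 7.58 at day 14. On the log2 scale it was 1.29 ± 0.41 and 3.18 ± 0.93, a difference of 1.89 with no overlap (p = 0.1, adjusted 0.12; exact permutation). The ratio of let-7a-5p to let-7d-5p moved less. It was 2.32, 1.75 and 2.39 at day 0 and 1.16, 1.69 and 1.31 at day 14, and its log2 difference was -0.64, with day 14 replicate 2 (1.69) close below the lowest day 0 library (exact permutation p = 0.1, adjusted 0.12). None of these ratios could pass 0.05 with 3 libraries per group. Leaving out any library kept the sign of each of the 3 differences, and without day 14 replicate 2 they were -2.16, 1.37 and -0.79.

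**Figure D4:**
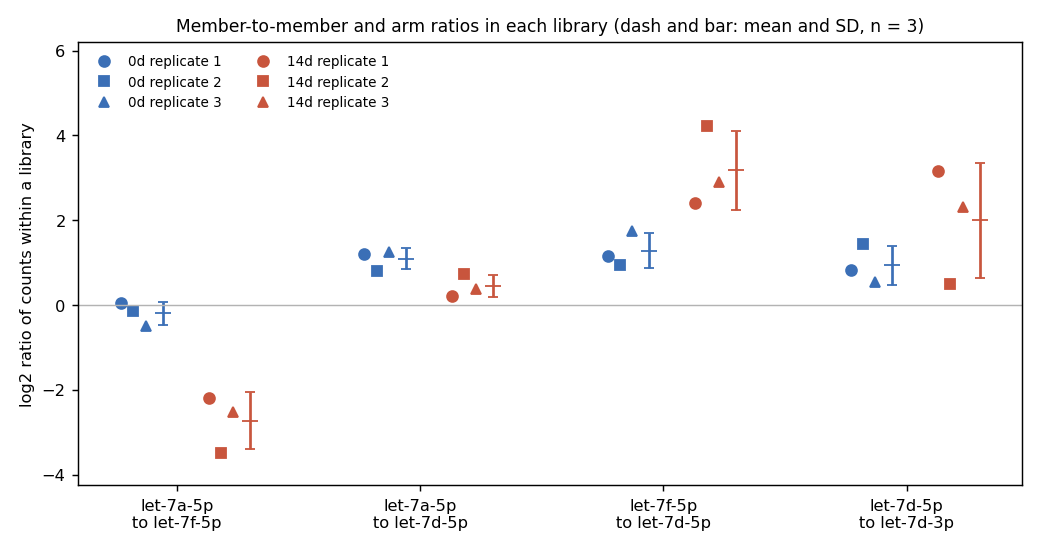
Log2 ratio of counts within each library for 3 pairs of guides and for the 2 arms of let-7d, with a pseudocount of 0.5; dashes and bars are the mean and SD of 3 libraries per group. The let-7a-5p to let-7f-5p ratios of the day 14 libraries lie below all day 0 libraries by more than the spread within either group, and the let-7d arm ratios overlap.

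Within the let-7 family, which here has 9 counted guides with miR-98-5p among them, let-7f-5p made up 4.33%, 4.20% and 5.69% of the family's counts at day 0 and 14.1%, 15.1% and 13.5% at day 14. The means were 4.74% ± 0.824 and 14.2% ± 0.780 (SD, n = 3 per group; exact 2-sided permutation p = 0.1, adjusted 0.15 over 3 guides). Its day 14 libraries were thus close to each other although the family's total varied from 1661 to 4863 counts. The 9 guides together held 31.8% ± 2.80 of all counts at day 0 and 5.54% ± 2.94 at day 14 (SD, n = 3 per group). The larger family share of let-7f-5p is thus a share of a smaller total. Of all counts let-7f-5p held 1.52% and 0.775%. Mean family shares went from 32.4% to 15.3% for let-7b-5p and from 37.9% to 19.1% for let-7c-5p. let-7a-5p made up 4.12% ± 0.359 and 2.25% ± 0.883 of the family (exact permutation p = 0.1, adjusted 0.15), with no overlap. let-7d-5p made up 1.93% ± 0.234 and 1.74% ± 0.936 (exact permutation p = 0.8), within the spread, so a change in its part of the family was not detectable. Among the other 6 family guides, all tested, 4 were called lower and none higher, beside 28.6% lower and 26.1% higher over all 119 tested sequences. Of these 6 guides only let-7g-5p (log2 fold change 0.19, edgeR adjusted p = 0.685) and let-7i-5p (-1.04, adjusted p = 0.0695) were, like let-7f-5p, not past the threshold. A feature that was looked for after these values were seen is the base at position 12. The 6 family guides with no substitution from let-7a-5p there, let-7a-5p itself and let-7d-5p among them, had log2 fold changes of -2.87 to -1.78 and were all called lower. The call of let-7d-5p was not stable. The 3 guides with a substitution there, let-7f-5p (G12A), let-7g-5p (G12U) and let-7i-5p (G12U), ran from -1.04 to 0.19. In CPM, let-7i-5p was still lower in each day 14 library than in any day 0 library, as were 37.0% of all tested sequences. The split by position 12 is a description of 9 sequences, some of which differ by 1 base, and no test was made of it.

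**Figure D5:**
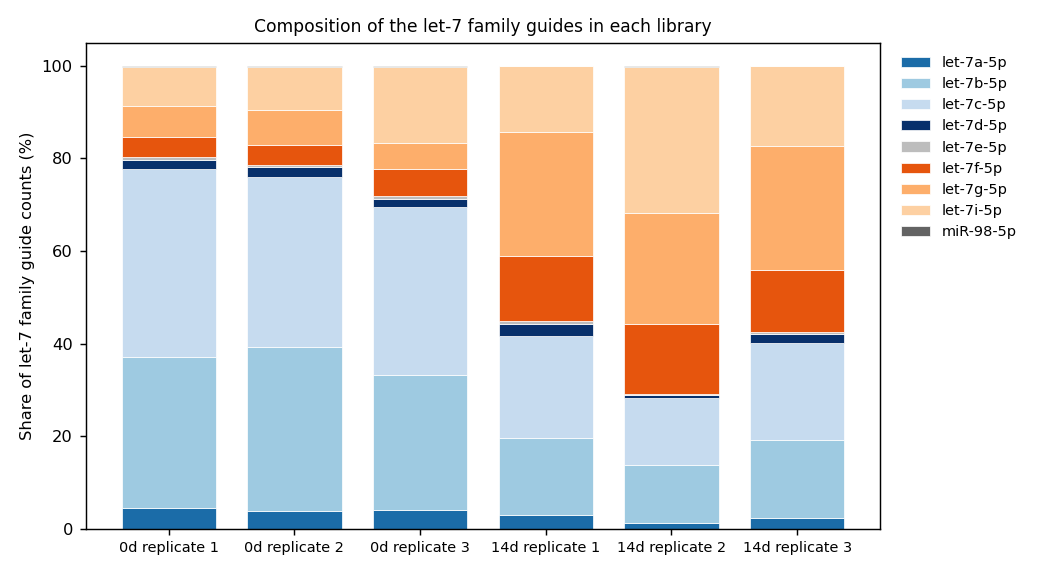
Share (%) of each of the 9 let-7 family guides in the family's counts, 1 bar per library. let-7f-5p (dark orange) takes 4.20% to 5.69% of the bars at day 0 and 13.5% to 15.1% at day 14, while let-7a-5p (dark blue at the base) takes 3.79% to 4.50% and 1.32% to 3.08%. The share of let-7g-5p also grows, from 5.69% to 7.57% at day 0 to 24.0% to 26.7% at day 14. The family as a whole held a smaller part of all counts at day 14 (31.8% on average at day 0 and 5.54% at day 14).

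The miRNAs whose log2 CPM followed the members most closely over the 6 libraries are given as a description, from 99 annotated miRNAs with a mean of at least 50 CPM. For let-7a-5p they were let-7c-5p (Pearson r = 0.993), the muscle miRNA miR-206-3p (0.993) and let-7e-5p (0.984). For let-7d-5p they were miR-125a-5p (0.993), miR-26a-5p (0.969) and let-7e-5p (0.958). For the passenger let-7d-3p they were miR-433-3p (0.997), the erythroid miR-486 (0.991) and miR-369-3p (0.984). For let-7f-5p the nearest were miR-26a-5p (0.749), miR-125a-5p (0.728) and let-7e-5p (0.721), a weaker likeness. All these values share the same 6 libraries and their scaling, and the contrast of day 0 and day 14 is part of each. Several of these miRNAs were near the floor at day 14. miR-433-3p had 0, 0 and 0 counts there, miR-486 3, 2 and 4, miR-206-3p 6, 0 and 4, and miR-125a-5p 5, 0 and 2. Their day 14 log2 CPM rests largely on the prior count and the scaling, so their r reflects little beyond the contrast. Values of neighbours of the further copies are given as a description. miR-98-5p, beside let-7f-2, had 390 counts in all at day 0 against 13 at day 14, a log2 fold change of -2.87 (edgeR adjusted p = 0.00647), while let-7f-5p stood at -0.22. Beside let-7a-2, miR-100-5p was at -0.88, which missed the threshold (edgeR adjusted p = 0.128). miR-125b-5p fell by 2.95 (edgeR adjusted p = 0.00647), but the table lists it on 2 lines, so its counts need not come from the copy beside let-7a-2. The difference between these neighbours was not tested.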

How the data were processed

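The members, lists and tests were chosen with earlier results of these data known. The authors deposited raw tag counts per mature miRNA, per the file headers, and a second table of normalized tag counts, used here as a normalized score. The raw table has 483 lines, 453 names and 417 sequences. Lines with the same sequence had equal counts and were merged, and blanks were taken as 0. Novoalign 3.02.12, cutadapt 1.9.3 and build rn6 appear in the submitters' processing notes. For the counting tool and the miRNA annotation, nothing is stated in the sources used here. RNA was extracted with Trizol, per the labels.

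The day 14 and day 0 libraries were compared with edgeR 4.0.16 (R 4.3.3; quasi-likelihood F test, 2-sided, TMM factors, default filter with minimum count 10 and minimum total 15, group as the only term). Benjamini-Hochberg adjustment ran over all 119 tested sequences, and a call required an adjusted p below 0.05. The SE is the log2 fold change divided by the square root of F. Ratios used log2 of counts plus 0.5. Shares and ratios were compared by exact permutation (20 arrangements, smallest p 0.1), and the 6 member share tests gave adjusted p of 0.12 for 5 members and 1 for let-7f-2-3p. The edgeR script was tested on simulated data.

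The naming rule covered the 6 members, let-7 family guides, neighbours of the precursors, miR-21-5p, and the 3 annotated miRNAs most like let-7a-5p, let-7d-5p, let-7d-3p and let-7f-5p (at least 50 CPM, prior count 2). miR-3559 was named after its value was seen. Other settings were upper-quartile and RLE factors, total counts with and without miR-21-5p, DESeq2 1.42.0, no filter, a stricter filter (minimum count 50, minimum total 75), the replicate number as a block, limma 3.58.1 on the log2 normalized score (pseudocount 1 or 0.1), 1 line per name, annotated names, thinned libraries and leaving out each library. Chosen after seeing the data were 20 thinned draws, the let-7 family as denominator and let-7c-5p as a second guide. The RefSeq tables are of GRCr8, not the build named in the notes, so no coordinates are given.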

Additional observations from a re-analysis of the deposited data

How the results depend on the processing

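The 3 members called lower stayed between 2 and 3 under the alternatives run. The count of members called higher, 0, was 1 with the authors' table at a pseudocount of 1 and with thinned libraries (let-7a-1-3p), and 0 to 1 when each library was left out. Over all sequences, 31 higher and 34 lower calls became 18 and 46 when libraries were scaled by total counts. The authors' table gave 20 and 44 (17 and 36 with a pseudocount of 0.1). Relative to TMM, the median log2 fold change of the tested sequences shifted by -0.86 (total counts), -0.75 (authors' table), -0.64 (1 line per name), -0.29 (upper-quartile factors), -0.17 (no filter), 0.43 (thinned libraries) and 0.62 (stricter filter). Relative to the median of all tested sequences, let-7a-5p was at -2.81 with TMM and -2.68 with total counts, let-7d-3p at -3.52 and -3.56, let-7d-5p at -2.04 and -1.89 and let-7f-5p at -0.49 and -0.44. A change of scaling moves all sequences about alike, so this likeness is largely built in. Where the set of sequences or libraries changed, the relative values moved: let-7f-5p was at 0.56 with the stricter filter, 1.89 with no filter and 0.05 without day 14 replicate 2, and let-7d-5p at 0.38 with no filter and -1.23 without day 14 replicate 2. The let-7f-5p value changed sign with the stricter filter (0.39), with thinned libraries (0.21) and as the median of 20 thinned draws (0.35). Its share, which changed by -0.746 percentage points of all counts at day 14, was 9.47 points higher when taken of the let-7 family's counts. The cause of these changes was not tested, apart from the change of denominator.

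Libraries of the same replicate number did not all deviate together (correlations of -0.02, 0.04 and 0.17, not all above 0.1). Day 0 replicates 2 and 3 correlated best with their own number, and day 0 replicate 1 with day 14 replicate 2 (0.05). Correlations of so few libraries cannot exclude pairing. The samples were taken to share only a number because the labels give nothing that ties them together. With the replicate block 1 member was called higher (let-7a-1-3p, 4.97, adjusted p = 0.0308), 3 were called lower and 31 sequences were called in each direction. The paired differences of the ratios equal the unpaired ones, and an exact sign-flip test of 3 pairs cannot go below 0.25. Depth limits the arm shares at day 14, where let-7d-5p and let-7d-3p together had 22 to 143 counts, and let-7f-2-3p, with 2 counts in all.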
